A study of Homo sapiens with 4 samples.

Results

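Intergenic circular RNAs are circles whose positions the caller of circular RNA placed outside every gene of the annotation it used. Members were the rows of the deposited count table with the circle type intergenic, outside the mitochondrial genome and with at least 1 count over the libraries. The rule gave 3090 circles of the 190152 circles with a count. The table listed 3544 such positions, and the 454 others were listed at 0 counts in every library. At the edge of the rule, 525 members had 1 count in total, and the most abundant member had 418. The other types were 110206 exon circles, 52627 intron circles, 20173 antisense circles and 3998 circles of type Unknown. No member carried a gene name in the deposited table, so the members below are named by their position in GRCh38.p14 and by the RefSeq gene they overlap or lie nearest to.

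A circular RNA forms when the spliceosome joins a downstream donor site to an upstream acceptor site, a reaction called back splicing. The closed ring has no free ends for exonucleases, so circles can be long lived. The acceptor site is the end of an intron, where a run of pyrimidines is followed by AG, and the donor site is the start of an intron, which opens with GT. A circle that lies outside annotated genes can come from a transcript that the annotation lacks, such as a long non-coding RNA (lncRNA) or transcription past the end of a gene. HNRNPL is an RNA-binding protein that binds CA-rich RNA and regulates splicing.

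All 4 libraries came from a radioresistant derivative of MDA-MB-468, made by giving 50 Gy in fractions over some weeks. MDA-MB-468 is an established line of basal-like breast cancer cells. The labels give 2 control libraries with shCtrl, a control short hairpin RNA, and 2 libraries with shHNRNPL, a stable hairpin against HNRNPL. The control and knockdown cells thus share the line, the irradiation and the resistant state, and the labels name 1 hairpin against HNRNPL. The cDNA was made from total RNA with Induro, a reverse transcriptase that can run around a ring, then amplified with phi29 polymerase and sequenced on a nanopore instrument. The comparison asks which intergenic circles depend on HNRNPL. In such bulk samples, fewer cells of a type and less RNA per cell cannot be told apart.

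The ends of a few members can be read base by base, because they lie inside promoter windows of RefSeq (GRCh38.p14). Shown here are the back-splice acceptor ends of the circles with more than 1 exon for which such a window exists, since these ends are the part of a circle that the splicing machinery has to recognise. Each line holds 20 bases on the circle's strand, 12 before the first base of the circle and 8 of the circle itself. The capitals mark the AG directly before the circle. The gene in each name is the RefSeq lncRNA whose window holds the end, and the strand is that of the circle. LOC105375514 lies on the minus strand, opposite to its circle, while the other genes lie on the strand of theirs.

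LOC105370311, plus strand, chr13:90880294-90880313: cttatgtttcAGttaaaccc
LOC105372916, plus strand, chr1:214814401-214814420: ttatttttgtAGgaagagga
LOC105378834, plus strand, chr1:87440567-87440586: aaatttgttcAGgttaagag
LOC105373812, plus strand, chr2:191779207-191779226: tttgtctcacAGatgctcta
LOC124901003, plus strand, chr5:74032599-74032618: gtctttttacAGactgtcaa
LOC105375514, plus strand, chr7:134098140-134098159: catattcttcAGgctggatg
LOC105371002, minus strand, chr15:96707300-96707319: tctaatccacAGatatgtcc
LOC105376081, minus strand, chr9:73113886-73113905: aactaattacAGaacattga

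These 8 ends belong to 9 circles, and AG stood directly before all of them. The motif was part of what the caller recorded, so this is a check of the coordinates and the build and not a finding. Of the 10 bases before the AG, between 5 and 8 were C or T. The circles at LOC105372916 and LOC105371002 began at the very base at which RefSeq starts the gene. The end at LOC105370311 lay 9 bases before the RefSeq start of that gene. It is the acceptor of a circle of 5 exons with 3, 16, 0 and 0 counts (control 1, control 2, knockdown 1 and knockdown 2, the order used throughout) and of a circle of 3 exons with 3, 0, 0 and 0.

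Beside these, 6 circles of 1 exon had an end inside such a window, and 2 to 8 of the 10 bases before their AG were C or T. The ends at MBNL2, TRMT112 and SERPINB9-AS1 had 8, 6 and 5, within the range of the ends above. Printed here are the ends with the fewest, at the histone gene H2AB3 (2) and beside TAF3 (4), so they do not stand for the rest. Both circles lie on the strand opposite to the gene.

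H2AB3 window, plus strand, chrX:155460211-155460230: ggggcggggcAGggggaatc
TAF3 window, minus strand, chr10:7818287-7818306: cgaaaacgccAGtgttttag

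The H2AB3 circle had 7, 0, 0 and 0 counts and the circle beside TAF3 had 1, 0, 0 and 0. Both were thus seen in control 1 alone. A copy of the H2AB3 end with the same bases lies at H2AB2 on the same chromosome and also had 7, 0, 0 and 0 counts, so counts at the copies are uncertain.

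The total count was 472428 in control 1, 556578 in control 2, 282737 in knockdown 1 and 390547 in knockdown 2. Of these, 5115, 2227, 1226 and 1563 counts fell on intergenic circles. Phi29 copies carry no molecular identifiers, so the true error may exceed counting error. Where a library had 0 counts, a share of up to 3 counts remained possible, or 0.635, 0.539, 1.06 and 0.768 per 100000 in the same order. Control 1 stood apart, with 1728 of the 3090 members detected, against 677, 665 and 794 in the others. The knockdown libraries were close to each other. Over members with at least 10 counts in the pair, the mean chi-square against counting error was 1.37 for the knockdown pair (10 circles) and 11.9 for the control pair (85 circles). Over all circle types the same means were 1.50 (8696 circles) and 8.34 (14472 circles). The medians for members were 0.264 for the knockdown pair and 11.8 for the control pair. The knockdown libraries were kept as 2 samples because the labels call them biological replicates, and whether they are technical was not tested. P-values measure the spread between these samples, which may be technical.

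The labelled cell type was checked against marker genes through their circles. Of 8 epithelial and basal markers, 6 had a circle with a count, with a summed level of 120, 85.5, 77.5 and 72.0 counts per 100000. Most of these counts were from MET (344, 338, 179 and 221). Among the keratins, KRT5 had 2, 0, 0 and 0 counts, and KRT14 and KRT18 had none. The epithelial CDH1 had 12, 3, 4 and 6, near the luminal ESR1 with 13, 5, 3 and 1. None of the 3 leukocyte markers (PTPRC, CD3E, LYZ) had a count. Of 3 luminal markers 2 had a count, with at most 2.96 per 100000 in a library, and of 4 stromal markers 1 had a count (VIM, with 2, 1, 0 and 0).

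Most members were circles of 1 exon seen in 1 library. Circles of 1 exon numbered 2664 (86.2%) and held 84.9% of the intergenic counts, while 426 circles had between 2 and 12 exons. The median length was 1505.5 nt for circles of 1 exon and 1122.5 nt for those with more exons, although the latter spanned a median of 8847.5 nt of the genome. The splice motif AG-GT, which marks a regular acceptor and donor, was listed for 2323 members (75.2%). AG-AT was listed for 314, AC-AT for 233, AG-GC for 138, AC-GT for 25 and no motif for 57. AG-GT was listed for 96.5% of circles with more than 1 exon and for 71.8% of circles of 1 exon. The table also gives an offset for each end, which it does not define. The 2 offsets were equal in 87.3% of circles with more than 1 exon and in 19.3% of circles of 1 exon.

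Circles with more than 1 exon also used the same ends again. Of the 426, 160 (37.6%) shared a start or an end with another such circle on the same strand. Among the 2664 circles of 1 exon, 30 (1.13%) did so. More than 1 isoform was listed for 22.8% of circles with more than 1 exon and for 0.751% of circles of 1 exon.

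The table has a field named for equivalent sequence at the junction, which it does not define. It held bases for 82.2% of circles with more than 1 exon and for 44.0% of circles of 1 exon, and the bases included AG for 52.3% and 11.2%. Among intron circles these shares with AG were 47.2% and 11.7%, so the contrast by exon number was not limited to intergenic circles. Runs of 8 or 9 bases at intergenic circles with more than 1 exon are printed below, since they show the shared AG. Capitals mark AG and the G or GT that follows it.

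chr9:81339171-81362722, minus strand, 2 exons: attatAGGT
chr9:108310666-108316936, minus strand, 4 exons: cttcacAGG
chr6:119780205-119817133, plus strand, 5 exons: atacAGGT

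The first of these circles had 0, 8, 1 and 2 counts, the next 0, 0, 0 and 4, and the last 8, 5, 1 and 4. The last lies in LOC105377975, the lncRNA gene with the most intergenic counts, which is described further on.

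Recurrence across libraries went with these features. A count was seen in 1 library for 2456 circles, in 2 for 534, in 3 for 60 and in all 4 for 40. The share with more than 1 exon was 9.28% of circles seen in 1 library, 25.5% of those seen in 2, 68.3% of those seen in 3 and 52.5% of those seen in 4. AG-GT was listed for 73.0%, 80.5%, 100% and 100% in the same order. Equal offsets were listed for 22.8%, 43.3%, 96.7% and 97.5%. The 40 circles seen in every library held 1114 of the 10131 intergenic counts.

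**Figure D1:**
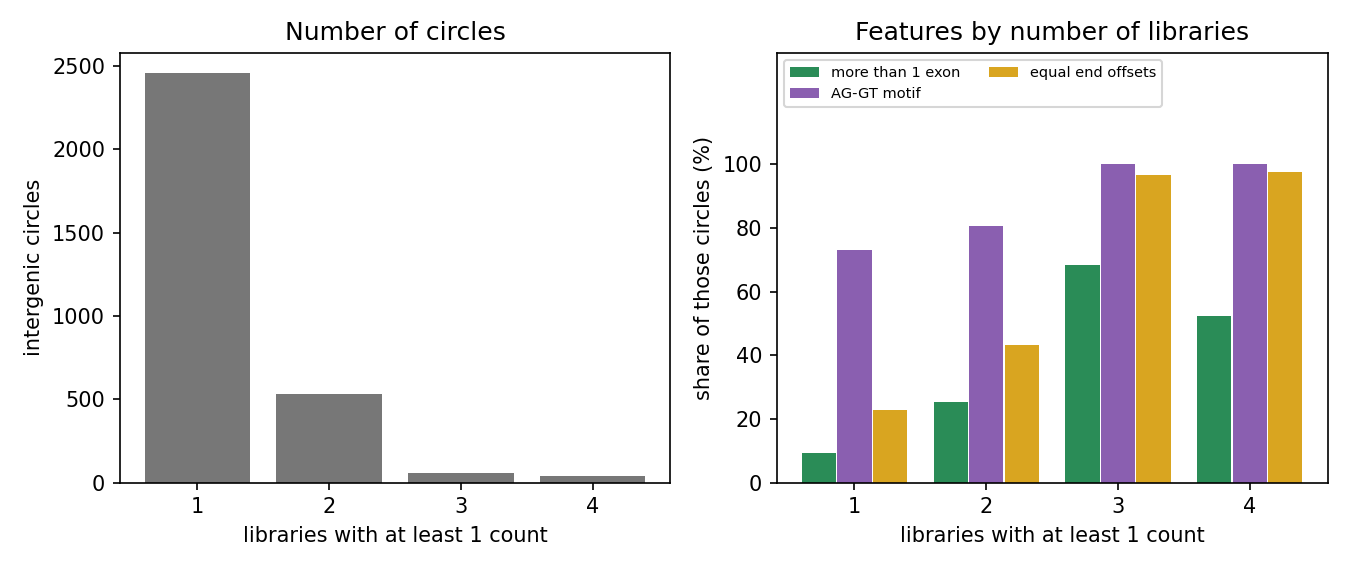
Intergenic circles by the number of libraries (1 to 4) in which they had a count; the left panel gives the number of circles and the right panel the percent of those circles with more than 1 exon, with the AG-GT motif and with equal offsets. Most circles (2456 of 3090) were seen in 1 library, and all 100 circles seen in 3 or 4 libraries had the AG-GT motif.

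Abundance did not stand in for recurrence among circles of 1 exon. Of the 107 members with at least 10 counts in total, 53 (49.5%) were seen in 1 library, 42 of them in control 1 and 11 in control 2. By exon number, 52 of 83 abundant circles of 1 exon and 1 of 24 abundant circles with more exons were seen in 1 library. In all 4 libraries were 17 of the 83 and 13 of the 24. Among circles of 1 exon with at least 10 counts of the other types, the share seen in 1 library was 69.4% for intron, 76.3% for antisense and 21.0% for exon circles.

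The libraries shared members unequally. Control 1 and control 2 shared 44 circles of 1 exon, which was 2.89% of those in control 1 and 9.26% of those in control 2. Each control and knockdown pair shared between 33 and 44. Knockdown 1 and knockdown 2 shared 367, or 68.7% and 58.8% of theirs. Circles with more than 1 exon were shared by every pair: 83 by the controls (40.7% and 41.1%) and 74 by the knockdown libraries (56.5% and 43.5%).

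**Figure D2:**
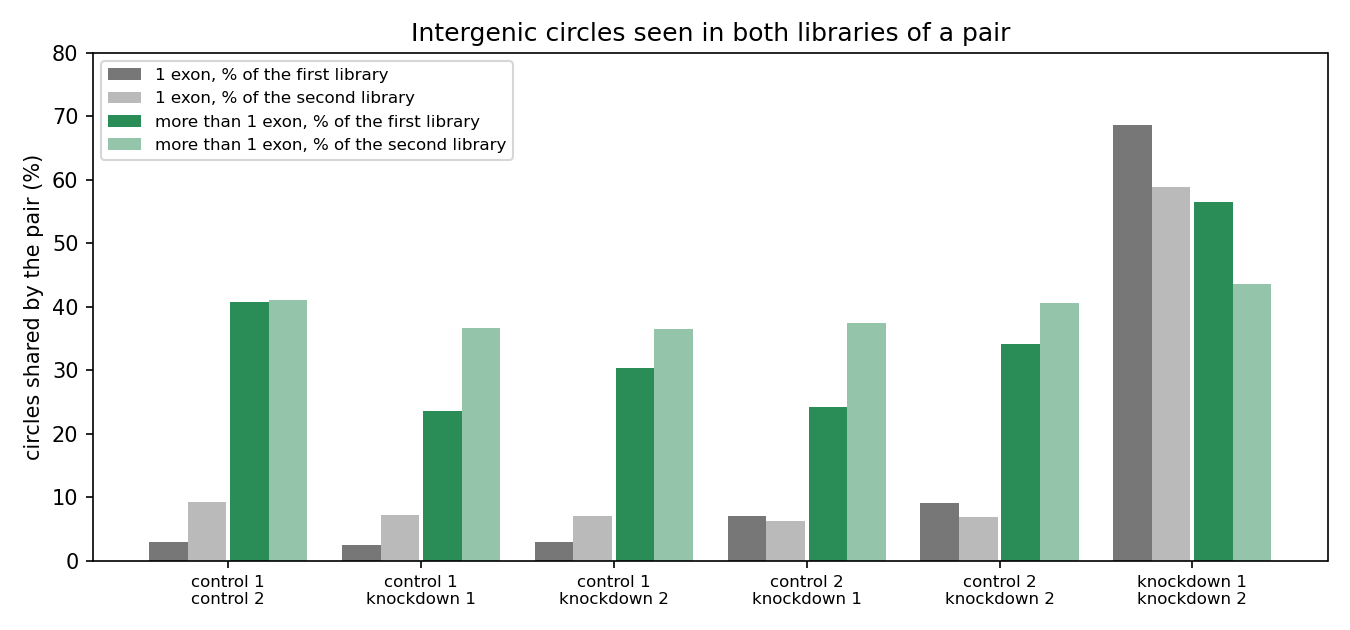
Percent of the intergenic circles of a library that had a count in the other library of a pair, for all 6 pairs, as a percent of the first library (dark bars) and of the second (pale bars), for circles of 1 exon (grey) and of more than 1 exon (green). Circles of 1 exon were shared at under 10% in every pair but the knockdown pair, where 68.7% and 58.8% were shared.

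Antisense and intron circles of 1 exon showed a like contrast. Antisense circles of 1 exon were shared at 1.83% and 4.23% by the controls and at 73.1% and 57.3% by the knockdown libraries, and intron circles of 1 exon at 3.70% and 10.9% against 72.7% and 58.7%. The contrast was smaller for exon circles of 1 exon, where the controls shared 1633 (18.0% and 36.2%) and the knockdown libraries 3538 (71.6% and 56.4%). Whether the knockdown libraries share an amplification or another step was not tested. A rule that asks for 2 libraries therefore admits more circles through the knockdown pair than through any other. Circles seen in at least 2 libraries had 147, 134, 297 and 253 counts per 100000, and those seen in 1 library had 936, 266, 136 and 147.

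The total level of intergenic circles did not separate the groups. It was 1083 counts per 100000 in control 1, 400.1 in control 2, 434 in knockdown 1 and 400.2 in knockdown 2, so only control 1 was high. The means were 741 ± 483 in controls and 417 ± 23.6 in knockdowns (SD, n = 2 each), a ratio of 0.562 with an exact two-sided permutation p of 1, where 0.33 is the smallest that 2 against 2 can give. Without control 1 the ratio was 1.04, and without control 2 it was 0.385.

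Circles of 1 exon carried the excess of control 1. Their level was 987, 298, 359 and 324 per 100000, and the groups overlapped. As a percent of 1-exon intron circles it was 7.06%, 6.20%, 7.14% and 6.28%, so control 1 was not above knockdown 1 on that scale. Between the groups the exact permutation p on that scale was 0.667. The excess of control 1 was thus shared with intron circles of 1 exon, whose level was 13991, 4805, 5028 and 5161 per 100000.

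Circles with more than 1 exon were lower in both knockdown libraries than in both controls. Their levels were 95.3 and 102 counts per 100000 with shCtrl and 74.6 and 76.0 with shHNRNPL, or 98.8 ± 5.06 against 75.3 ± 1.00 (SD, n = 2 each). The ratio was 0.762, and between 0.736 and 0.791 with any library left out. The exact two-sided permutation p was 0.33, the smallest this design allows. Circles over the lncRNA gene LOC105377975 took 19.1% and 15.1% of these counts in the control libraries. They took 6.64% and 10.1% in the knockdown libraries, and without them the ratio was 0.842. The other types of more than 1 exon had ratios of 0.850 (intron), 0.759 (antisense), 1.09 (exon) and 1.13 (Unknown). Set against intron circles with more than 1 exon in the same library, the intergenic ones came to 1.68% and 1.77% in controls and 1.52% and 1.57% in knockdowns, a ratio of 0.897 with p = 0.33 by the exact permutation test.

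**Figure D3:**
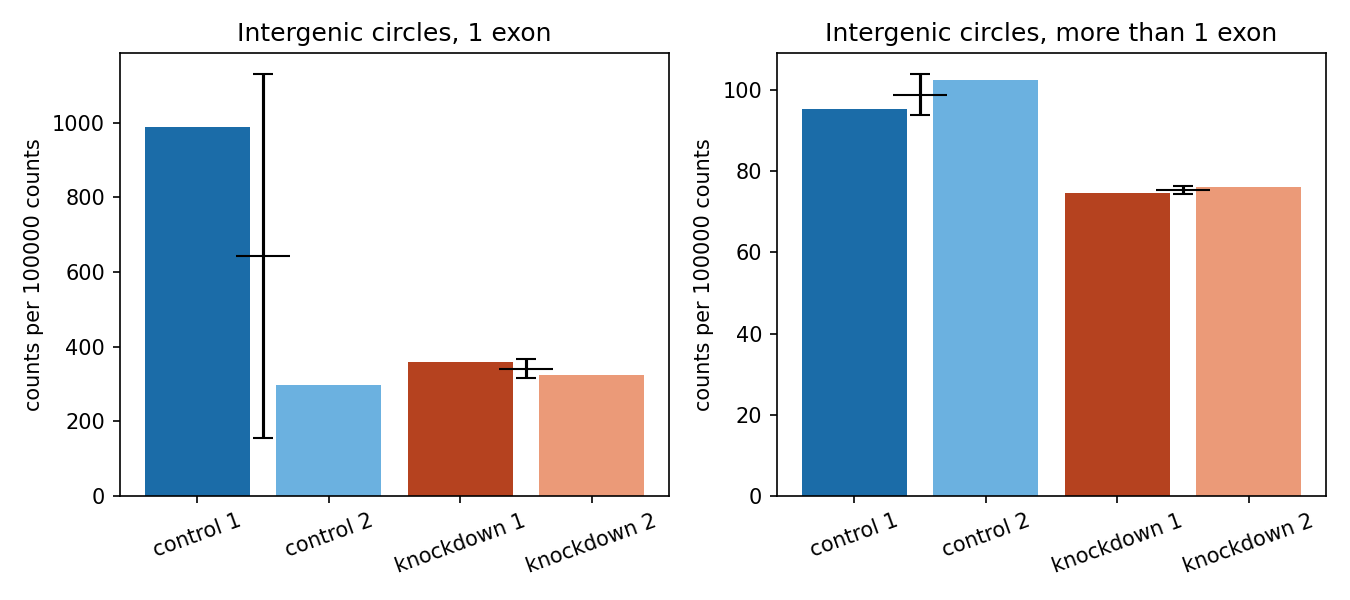
Counts of intergenic circles per 100000 counts in each library, for circles of 1 exon (left) and of more than 1 exon (right); the black line is the mean of a group and the bar its SD (n = 2). Control 1 is far above the other libraries on the left (987 against 298 to 359), while on the right both knockdown libraries (74.6 and 76.0) lie below both controls (95.3 and 102).

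The number of circles at equal depth gave the same picture. With each library thinned to 282737 counts, 1390, 536, 665 and 670 intergenic circles were detected (ratio 0.693, exact permutation p = 1, overlapping). Without control 1 the ratio was 1.25. For circles with more than 1 exon the numbers were 154, 148, 131 and 141, a ratio of 0.901 with no overlap and p = 0.33 by the exact permutation test. As a share of all circles detected, intergenic circles were 1.64%, 0.888%, 1.06% and 1.05%.

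The count-weighted length and the exon number did not separate the groups, while the length with each circle counted once did. The median length weighted by counts was 1698, 1290, 1732 and 1542 nt, a mean difference of 143 nt with an exact permutation p of 0.667. Control 2 was the low library, and without it the difference was -61 nt. With each circle counted once, the median was 1498 and 1240 nt in the controls and 1574 and 1514 nt in the knockdowns. Both knockdown libraries were above both controls on that measure, with a mean difference of 175 nt and an exact permutation p of 0.33, the smallest possible here. Within circles of more than 1 exon the count-weighted median was 1067, 1043, 1112 and 1050 nt. Circles of 1 exon took 91.2%, 74.4%, 82.8% and 81.0% of the intergenic counts, with both knockdown libraries between the controls.

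RefSeq genes cover part of what the caller's annotation left out. Of the members, 886 (28.7%) overlapped a gene in RefSeq (GRCh38.p14), 635 of them a lncRNA gene and 260 a protein-coding gene. The overlap was larger for circles with more than 1 exon (55.6%, and 49.5% with a lncRNA gene) than for circles of 1 exon (24.4% and 15.9%). It was scored over the whole span from start to end, with a median of 8847.5 nt for the former and 1505.5 nt for the latter. A wider span meets more genes, and whether the contrast goes beyond this was not tested. The strand was known for 48.3% of the RefSeq genes used. Of the overlapping circles, 297 lay on the strand of a gene, 172 on the opposite strand only, and for 417 the strand of the gene or the circle was not known. A further 1339 circles lay within 10000 nt of a gene, 865 lay farther away and 87 lay more than 100000 nt away. No member overlapped any of the 1562 miRNA hairpins compared.

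Circles outside genes lay more often downstream than upstream of a protein-coding neighbour. The nearest gene was protein-coding and within 10000 nt for 868 members. Of these, 303 lay downstream on the same strand and 258 downstream on the opposite strand. Upstream lay 67 on the same strand and 66 on the opposite strand. The strand of the gene was not known for 161 and that of the circle for 13, so these could not be placed. No other circle type was compared. The downstream same-strand circles had 621, 198, 116 and 152 counts. Only 16 of the 303 had more than 1 exon.

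Some chromosomes held a larger share of the intergenic circles than of the intron circles, as a description with no test. Chromosome 6 held 317 members, or 10.3% against 7.74% of intron circles. Chromosome X held 171 (5.53% against 2.90%) and chromosome 4 held 204 (6.60% against 4.21%). Chromosome 1 held the most, 382 (12.4% against 12.3%). Of the 65 members on chromosome 6 with more than 1 exon, 29 came from the locus described next.

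A long stretch of chromosome 6 gave the largest family of intergenic circles with more than 1 exon. LOC105377975, a RefSeq lncRNA gene at chr6:119549808-119845084, was overlapped by 38 members, 29 of them with more than 1 exon. They had 102, 89, 16 and 32 counts, or 21.6, 16.0, 5.66 and 8.19 per 100000. Both knockdown libraries were below both controls, with means of 18.8 ± 3.96 and 6.93 ± 1.79 (SD, n = 2 each) and a ratio of 0.369 (0.301 to 0.436 with any library left out).

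The chromosome 6 circles reused a few ends. The start at position 119810150 was shared by 9 circles with 30, 41, 10 and 8 counts together. The start at position 119843066 was shared by 5 circles with 31, 22, 0 and 6. The end at position 119844747 was shared by 4 circles with 19, 37, 6 and 8. All these circles had more than 1 exon and lay on the plus strand.

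The most abundant of them, chr6:119810150-119844747, joins 6 exons into a ring of 702 nt that spans 34598 nt of the genome. It had 14, 26, 6 and 7 counts, so the knockdown libraries were below both controls. The circle chr6:119843066-119846985 (2 exons, 2461 nt) had 14, 5, 0 and 2 counts. The circle chr6:119781331-119817133 (3 exons, 1265 nt) went the other way on counts, with 5, 1, 2 and 7. Of the 38 circles over this gene, 19 were seen in 1 library and 3 in all 4.

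Further lncRNA genes were ranked by their intergenic counts, and the 10 with the most were compared by level. This ranking was chosen after the values were seen. In 4 of the 10 both knockdown libraries were below both controls, in 1 both were above, and in 5 the groups overlapped. As background, the groups did not overlap in the direction of lower for 35.7% of all loci and host genes tested and in the direction of higher for 15.7%.

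**Figure D4:**
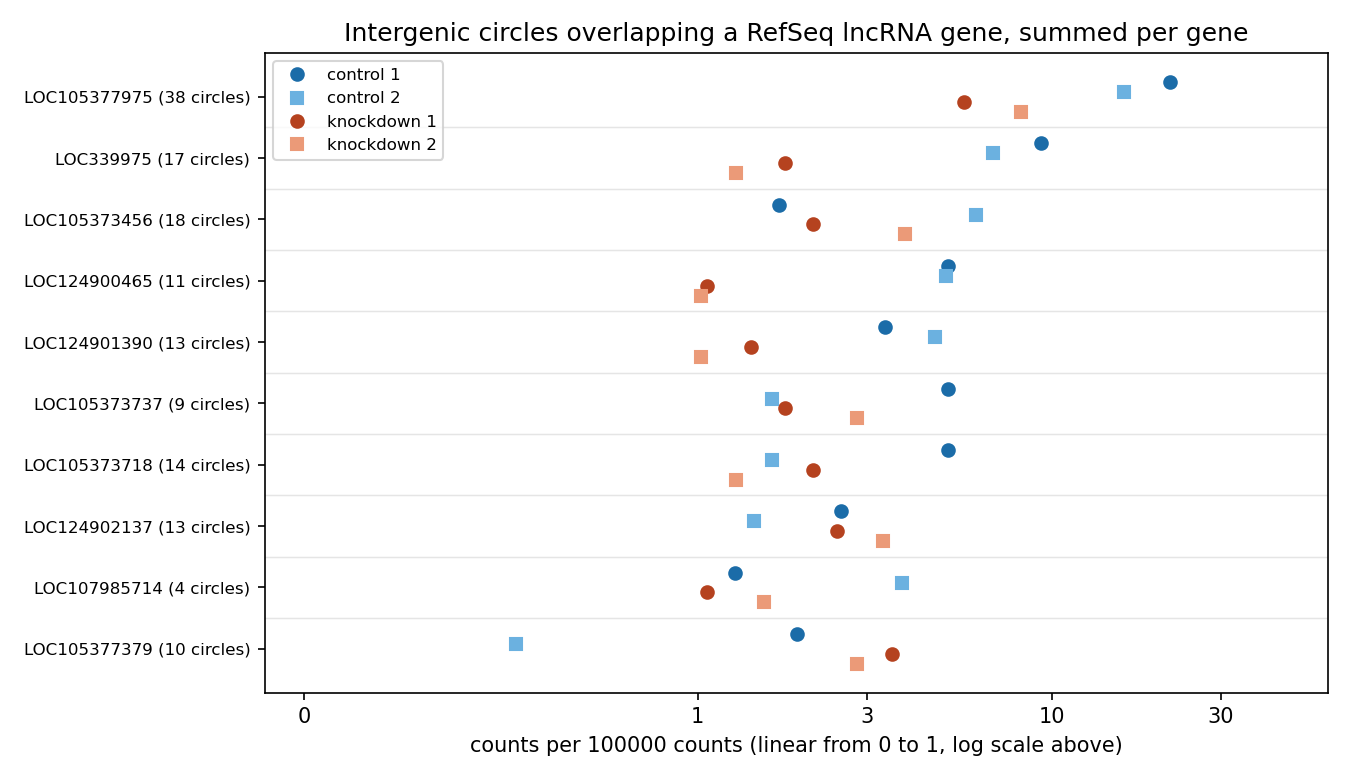
Counts per 100000 in each library (linear from 0 to 1, log scale above) of the intergenic circles that overlap each of 10 RefSeq lncRNA genes, summed per gene. The knockdown points (red) lie below the control points (blue) for LOC105377975, LOC339975, LOC124900465 and LOC124901390, and above them for LOC105377379.

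LOC339975 (chr4:187304083-187505613) had 17 circles with 44, 38, 5 and 5 counts, or 9.31, 6.83, 1.77 and 1.28 per 100000, a ratio of 0.189. However, 12 of the 17 were seen in 1 library, so partly different circles made up the sums. LOC124900465 (chr21:17745295-17891124) had 11 circles with 24, 28, 3 and 4 counts, or 5.08, 5.03, 1.06 and 1.02 per 100000, a ratio of 0.206. LOC124901390 (chr6:119867350-119884128) had 13 circles with 16, 26, 4 and 4 counts, but 11 of these also overlap LOC105377975 and are part of its sum. LOC105377379 (chr4:114458112-114494107) had 10 circles with 9, 3, 10 and 11 counts, a ratio of 2.60, which was 1.67 without control 2 and 5.89 without control 1. The plus-strand locus that takes in this gene and circles beside it was not higher, with 25, 15, 8 and 11 counts and a log2 fold change of -0.14 ± 0.62 (adjusted p = 0.945, edgeR).

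Individual circles were then described by a rule that took the 10 with the most counts. The most abundant intergenic circle, chr4:13179196-13182068, is a ring of 1 exon of 2873 nt on the minus strand, 129910 nt from the nearest RefSeq gene. It had 119, 103, 95 and 101 counts, or 25.2, 18.5, 33.6 and 25.9 per 100000. It was present in every library, and both knockdown libraries were above both controls, though knockdown 2 (25.9) was close to control 1 (25.2). The fitted log2 fold change came to 0.34 ± 0.42 (SE). Its adjusted p was 0.702 by edgeR's quasi-likelihood test with Benjamini-Hochberg adjustment over all 21576 circles tested.

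The next, chr10:72093692-72094797, a circle of 1 exon of 1106 nt, lies 1235 nt downstream of ASCC1 on the same strand. ASCC1 encodes a subunit of a transcriptional coactivator complex that also takes part in DNA alkylation repair. It had 28, 58, 12 and 20 counts, or 5.93, 10.4, 4.24 and 5.12 per 100000, with both knockdown libraries below both controls. The log2 fold change was -0.80 ± 0.42 (adjusted p = 0.430, edgeR). The chromosome 6 circle of 6 exons followed, with a log2 fold change of -0.98 ± 0.52 (adjusted p = 0.430, edgeR).

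Control 2 was the high library for the next circles with several exons. The circle chrX:96497056-96503146 (3 exons, 2779 nt, over the lncRNA genes LOC107985714 and LOC105373296) had 3, 17, 3 and 6 counts. The circle chr20:11943159-11999196 (6 exons, 1043 nt) lies 16564 nt downstream of BTBD3 on the same strand and had 3, 18, 4 and 2. BTBD3 is a protein with a BTB domain known for a role in dendrite orientation in neurons. In both cases the groups overlapped, since control 1 was below a knockdown library in level.

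Several of the 10 were seen in control 1 alone. The circle chr4:114202569-114205044 had 26, 0, 0 and 0 counts, chr21:28801972-28804967 (over HEMK2, which encodes a methyltransferase) had 24, 0, 0 and 0, and chr4:95650778-95652604 had 23, 0, 0 and 0. All 3 have 1 exon, and the last pair carry the motifs AG-AT and AC-AT. The controls thus differed from each other by as much as control 1 differed from the knockdowns. The circle chr4:187430062-187431436 over LOC339975 had 4, 16, 1 and 2 counts, with a log2 fold change of -1.97 ± 1.01 (adjusted p = 0.430, edgeR).

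**Figure D5:**
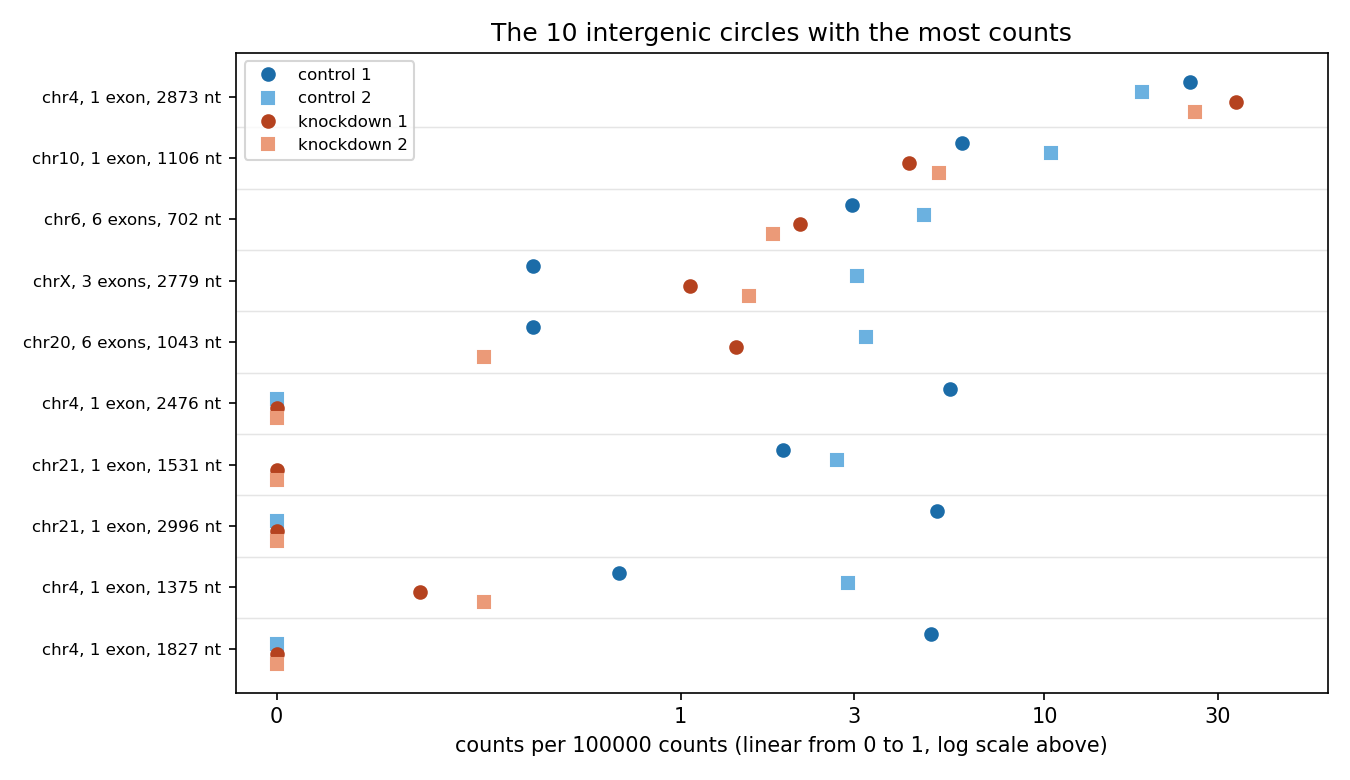
Counts per 100000 in each library (linear from 0 to 1, log scale above) of the 10 intergenic circles with the most counts, named by chromosome, number of exons and length in nt. The top circle has 18.5 to 33.6 per 100000 in every library, while 3 circles of 1 exon were seen in control 1 alone.

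No intergenic circle passed an adjusted p of 0.05. Of the members, 107 had at least 10 counts and were tested with the other types in edgeR's quasi-likelihood test, and 0 were called (0.0% of all 21576 circles were called), with a smallest adjusted p of 0.157 among members. DESeq2 called 1 member (background 4.88%), but it gave no adjusted p for some members with few counts, chr1:199567017-199568112 among them. At an unadjusted p under 0.05 edgeR gave 9 members (8.41%), 6 higher and 3 lower, against a background of 13.4% (9.42% higher and 4.00% lower). Both shares of the members were below the background.

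Among the 107, the log2 fold change was below 0 for 91 (85.0%, against 59.8% of all circles tested) and above 0 for 16 (15.0%, against 40.2%), with a median of -5.22 against -0.39. This does not describe all members. A circle passed the filter through the library where it was high, and 53 of the 91 had counts in 1 control library alone. The groups did not overlap in the direction of lower for 22 members (20.6%, background 22.9%) and of higher for 10 (9.35%, background 23.2%). Of the 24 tested circles with more than 1 exon, 20 had a log2 fold change below 0, with a median of -0.99, and of the 83 circles of 1 exon 71 did, with a median of -5.42.

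The calls turned on which control was kept. Without control 1, 23 of 44 members tested were called (7 higher and 16 lower, background 28.1%), and without control 2, 54 of 72 (6 higher and 48 lower, background 43.2%), with edgeR in each case. In such a fit the lone control is assumed to vary as the knockdown libraries do, and these lay close together. Without a knockdown library 0 were called. With at least 5 counts required in 2 libraries, 5 of 23 were called (3 higher and 2 lower, background 12.0%). With a replicate block 9 of 107 were called (background 7.66%), 1 higher and 8 lower, while over all circles that fit called 1242 higher and 411 lower. The 8 lower included chr4:114202569-114205044, chr21:28801972-28804967 and chr4:95650778-95652604. These had counts in control 1 alone and passed the filter through that library, so their direction was fixed in advance. The split by direction thus does not describe all members.

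The 5 members with the smallest p in the direction of higher had few counts. The circle chr18:22552938-22553611 (1 exon, 674 nt, over the lncRNA gene LOC124904265) had 0, 0, 7 and 9 counts. Its level was at least 4.07-fold higher in the knockdowns, setting the controls at the mean of what 3 counts a library would give. The adjusted p was 0.157 with edgeR, 0.0113 with a replicate block and between 0.0177 (at least 5 counts in 2 libraries) and 0.668 over the other alternatives that kept every library. DESeq2 gave 0.0421. The circle chr5:79347830-79349750 (1 exon) had 1, 1, 11 and 4 counts and a log2 fold change of 3.39 ± 1.12 (adjusted p = 0.266, edgeR). The circles chr1:199567017-199568112 and chr9:26172650-26175288 each had 0, 0, 5 and 5 counts, and chr2:180483413-180486355 had 0, 0, 4 and 6. These 3 were at least 2.60-fold, 2.60-fold and 2.51-fold higher on the same floor, with adjusted p-values of 0.320, 0.320 and 0.323 (edgeR). The first pair passed with an adjusted p of 0.0366 each when at least 5 counts were required in 2 libraries. All folds given as at least, here and below, take the observed mean of the other group as exact. Its counting error is left out, so they are not confidence bounds.

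The 5 members with the smallest p in the direction of lower were all listed at 0 in both knockdown libraries. The circle chr21:17755259-17756789 (1 exon, 1531 nt, over LOC124900465) had 9, 15, 0 and 0 counts and was at least 2.51-fold lower, with an adjusted p of 0.169 (edgeR). The call changed with the processing: the adjusted p was 0.0159 with a replicate block and 0.0252 with at least 5 counts required in 2 libraries, and 0.0918 with DESeq2. The circle chr4:114513014-114514641 (3 exons, 510 nt, 18907 nt from the nearest gene) had 7, 10, 0 and 0 counts and was at least 1.79-fold lower. Its adjusted p was 0.264, and 0.0405 with at least 5 counts required in 2 libraries. The circle chr13:90880306-90888510, whose acceptor end was printed above under LOC105370311, had 3, 16, 0 and 0. It was at least 1.92-fold lower by the mean of the controls, as these folds are all taken. Its level in control 1 (0.635 per 100000) was below the mean floor of the knockdowns (0.915), so that fold rests on control 2. The circles chr6:119843066-119844747 (2 exons, 5, 7, 0 and 0 counts) and chr21:17889251-17892059 (1 exon, 6, 5, 0 and 0) were at least 1.27-fold and 1.19-fold lower. For the latter, control 2 (0.898 per 100000) was also below that floor. The adjusted p-values of these last 3 circles were 0.299, 0.417 and 0.430 (edgeR). None of the 5 passed the test as reported.

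Overlapping members on a strand were also joined into 2616 loci, so that circles sharing a source are counted together. Loci were tested beside the host genes of the other types, 6054 features in all. Of the 143 intergenic loci with at least 10 counts, 0 were called by edgeR (background 1.17%), and 10 had an unadjusted p under 0.05 (6.99%, background 14.7%). Of these, 5 were higher (3.50%, background 7.96%) and 5 lower (3.50%, background 6.71%). DESeq2 called 0 (background 2.46%), but it gave no adjusted p for some loci with few counts, chr21:17755259-17756921 among them. Such loci could not be called. With no filter on counts 2 of 2616 loci were called (background 2.3%), and with a replicate block 2 of 143 (background 5.24%). The log2 fold change was below 0 for 112 (78.3%, background 60.5%) and above 0 for 31 (21.7%, background 39.5%), with a median of -1.57 against -0.28. The groups did not overlap in the direction of lower for 30 (21.0%, background 35.7%) and of higher for 11 (7.69%, background 15.7%). Scaling by library size in place of TMM moved the median of all features from -0.28 to -0.69, and that of the loci to -1.98. Without control 1, 22 of 62 loci were called (background 28.0%), and without control 2, 60 of 105 (background 39.0%), by edgeR.

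The chromosome 6 locus (chr6:119780181-119983096, 39 circles) was the largest of the loci that were lower. Its 112, 87, 14 and 34 counts gave 23.7, 15.6, 4.95 and 8.71 per 100000, with both knockdown libraries below both controls. The log2 fold change was -1.16 ± 0.41, an unadjusted p of 0.0196 and an adjusted p of 0.245 (edgeR). The adjusted p was 0.115 with a replicate block and lay between 0.133 and 0.920 over the other alternatives that kept every library. It was 0.00939 without control 1 and 3.7e-04 without control 2.

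The locus with the smallest p in that direction, chr21:17755259-17756921 over LOC124900465, had 14, 21, 0 and 0 counts. It was at least 3.68-fold lower in the knockdowns, with an adjusted p of 0.115 (edgeR). The call changed with the processing, to 0.0254 with a replicate block and 0.0211 with no filter on counts. Loci over LOC339975 lay on both strands. On the minus strand, chr4:187416264-187419419 had 10, 12, 0 and 0 counts (at least 2.34-fold lower, adjusted p = 0.245). On the plus strand, chr4:187422066-187435539 had 22, 22, 3 and 4 (log2 fold change -1.70 ± 0.74, adjusted p = 0.327, edgeR). The locus of LOC105370311 on chromosome 13 had 6, 16, 0 and 0 counts and was at least 2.27-fold lower by the mean of the controls (adjusted p = 0.260, edgeR).

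Among the loci that were higher, 4 of 5 hold only a circle given above. The fifth, chr1:232043915-232051907 over the lncRNA gene LOC105373172, held 2 circles of more than 1 exon with 0, 0, 5 and 6 counts together, at least 2.81-fold higher (adjusted p = 0.271, edgeR).

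Of the remaining loci among the 10 with the most counts, chr4:13179196-13204560 had the most. It held 4 circles and 123, 104, 96 and 103 counts, with both knockdown libraries above both controls in level. The log2 fold change was 0.76 ± 0.35 (adjusted p = 0.364, edgeR), against 0.34 ± 0.42 for its main circle, chr4:13179196-13182068. Under library-size scaling these were 0.35 and 0.24. With any library left out, that of the locus ranged from 0.61 to 0.93. The locus chr7:54621680-54631280 was higher in 1 knockdown library. It held 11 circles with 13, 3, 7 and 22 counts (log2 fold change 1.72 ± 0.83, adjusted p = 0.388, edgeR). The locus chr7:76653831-76786829, 25849 nt from LINC03009, held 7 circles and 23, 18, 5 and 6 counts, with both knockdown libraries below both controls (log2 fold change -0.95 ± 0.69, adjusted p = 0.529). The locus chr4:114202569-114210333 held 6 circles of 1 exon with 37, 0, 1 and 2 counts, nearly all in control 1. The locus of LOC105377379, chr4:114447762-114514641, was given above, that of LOC105373737, chr2:171264834-171301183, had 24, 9, 5 and 11, and that downstream of BTBD3, chr20:11943159-12070186, had 4, 22, 5 and 5. Adjusted p-values for these last 3 were between 0.871 and 0.957 with edgeR. The locus downstream of ASCC1, chr10:72093692-72094831, had 30, 58, 12 and 20 counts, with both knockdown libraries below both controls in level. Its log2 fold change was -0.56 ± 0.51 (adjusted p = 0.638, edgeR).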

How the data were processed

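Raw counts were deposited by the authors as a table with 1 row per back-splice position and 1 column per library, per the file headers. CIRI-long, a caller of circles from long reads, is named in each row. GRCh38.p14 and DESeq2 are named in the submitters' processing notes. The caller's version, base caller, aligner and filters are not given in the sources used here. A second deposited table, with columns named for CPM, was not used. No sample column of the counts was left unused. Circle type, motif, exons, isoforms and length were taken as deposited, and places were set against RefSeq genes of GRCh38.p14.

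Members and lists were chosen with earlier results of these data known. Groups came from the sample titles. Circles with at least 10 counts in total (21576 of all types) were tested with edgeR 4.0.16 (R 4.3.3, quasi-likelihood test, TMM, Benjamini-Hochberg over the whole table, threshold 0.05); loci were tested with summed host genes. DESeq2 1.42.0 was an alternative. Scripts were tested on simulated data. Levels per library, in counts per 100000, were compared by exact two-sided permutation tests. Thinning used the mean of 10 draws. Named were the 10 circles and 10 loci with the most counts and the 5 higher and 5 lower of each with the smallest p. The deviations of same-numbered libraries had a correlation of 0.07 over 4944 circles. The knockdown libraries lay close together, so this cannot show whether the numbers name a shared batch. The main test used no pairing.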

Additional observations from a re-analysis of the deposited data

How the results depend on the processing

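With 2 libraries a group, a single control decided most values. The ratio of intergenic levels ranged from 0.385 to 1.04 with any library left out, that of circles at equal depth from 0.480 to 1.25, the difference in length from -61 to 347 nt and that in the 1-exon share from -9.31 to 7.49 percentage points; the ratio for circles with more than 1 exon ranged from 0.736 to 0.791. Within the second replicate number alone (a replicate block), these were 1.0002 for the level, 1.25 at equal depth and 6.59 points for the 1-exon share; each circle counted once gave 0.267 points. Circles seen in at least 2 libraries gave a ratio of 1.96. For circles with more than 1 exon, the added alternatives gave 0.842 without LOC105377975, 0.895 for circles seen in at least 2 libraries and 0.704 against all counts of circles with more than 1 exon.

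Calls of circles, 0 in the test reported, were 1 with DESeq2, 5 of 23 with at least 5 counts in 2 libraries and 9 with a replicate block, and 0 to 54 with a library left out. Calls of loci were 2 with no filter, 2 with a replicate block and 0 to 60 with a library left out. Both counts were 0 under library-size scaling, DESeq2 size factors, at least 40 counts, the newer dispersion method and, added after seeing the data, the knockdown libraries summed. The cause was not tested. Of 413 refits of named circles and loci, 350 kept their direction and stayed without a call, and 7 changed direction. The 350 include DESeq2 refits that gave no adjusted p. The rest gained a call, most of them with a control left out. With any library left out, the log2 fold change ranged from -0.034 to 0.84 for chr4:13179196-13182068, from -1.01 to 0.78 for chrX:96497056-96503146, and for the loci of ASCC1 from -0.92 to 0.18, of BTBD3 from -1.18 to 1.38, of LOC105377379 from -0.30 to 0.27 and of LOC105373737 from -0.53 to 0.74 (0.17 without knockdown 1). Counts of a few per library limit all but the most abundant circles.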

Other observations

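Some members lie in sequence that is present more than once in the genome, where counts of the copies are uncertain. A circle of 1340 nt is listed at the same positions of chromosomes X and Y (2211489 to 2212828, minus strand). Its X copy had 8, 1, 6 and 4 counts in control 1, control 2, knockdown 1 and knockdown 2, and its Y copy had 4, 5, 4 and 5. A circle of 468 nt at 1400094 to 1400561 is likewise listed on both, with 2, 0, 0 and 0 counts each.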
